A study of Mus musculus with 6 samples.

Results

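The genes described here are 10 members of the prostaglandin pathway: the transporter Slco2a1, the breakdown enzyme Hpgd, the synthesis enzymes Ptgs1, Ptgs2, Ptges and Ptgis, and the receptors Ptger2, Ptger3, Ptger4 and Ptgfr. They are 10 of the 24568 gene symbols in a single-cell RNA sequencing matrix of fetal mouse intestine, and all 10 had counts. They were chosen by the level of Slco2a1 in these same cells, where it had the largest excess in mesenchymal cells with a high level of Pdgfra, the platelet-derived growth factor receptor alpha. The level of Slco2a1 in those cells is therefore a description, and the values of the other members in the same comparisons are given as descriptions too.

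The cells came from small intestine of C57/BL6 embryos carrying Pdgfra-H2BGFP, an allele in which nuclear green fluorescent protein reports activity of the Pdgfra promoter. Tissue segments were marked with lipid-bound barcodes (MULTI-seq), pooled across embryos and captured with 10x chemistry that reads transcript 3′ ends. The labels list 6 samples in 4 groups. An experiment on E15.5 and E16.5 had 2 lanes with every live cell and 1 lane with enriched cells, and an experiment on E13.5, E14.5 and E18.5 was laid out in the same way. Enriched cells were those positive for CD31, CD45 or Epcam, or bright for the reporter, and every sample excluded dead cells and Ter119-positive red cells. No untreated or mutant control group was part of the design, and all embryos shared the strain and the reporter. The matrix pools all cells, and none of the 6 barcode suffixes is tied to a sample, an age or a sort by any label. The suffixes are used only as technical sets, named A1, A2 and A3 for 1 ending and B1, B2 and B3 for the other. The whole matrix counts as 1 sample, so no test was made, and every interval below is a 95% interval that covers counting error only.

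Prostaglandins are short-lived lipid signals made from arachidonic acid, which the phospholipase Pla2g4a releases from membranes. The cyclooxygenases Ptgs1 and Ptgs2 convert it to prostaglandin H2, from which Ptges makes prostaglandin E2 and Ptgis makes prostacyclin. Slco2a1 carries prostaglandins across the cell membrane, Hpgd oxidises them to inactive products, and Ptger2, Ptger3, Ptger4 (for prostaglandin E2) and Ptgfr (for prostaglandin F2 alpha) are receptors coupled to G proteins. In the adult intestine, prostaglandin E2 from mesenchymal cells is known for its effects on epithelial renewal, mucosal defence and muscle tone.

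The promoter sequences of 4 members are shown because Hpgd and Ptgs1 were found more often in cells with Slco2a1, while Ptgs2 peaked in another cluster in ending A, though not in ending B. Each run is the 250 bases before the start in RefSeq, build GRCm38.p6, on the plus strand, and the table used holds such a window for 9 of the 10 members. Capitals mark letters that match 1 of 7 searched motifs on either strand: the TATA box (letters TATAAA), the GC box (letters GGGCGG), the CCAAT box, the cAMP response element (letters TGACGTCA), a forkhead motif (letters TGTTTAC), a GLI motif (letters GACCACCCA) and an E box (letters CACGTG).
Slco2a1, chr9:103008237-103008486: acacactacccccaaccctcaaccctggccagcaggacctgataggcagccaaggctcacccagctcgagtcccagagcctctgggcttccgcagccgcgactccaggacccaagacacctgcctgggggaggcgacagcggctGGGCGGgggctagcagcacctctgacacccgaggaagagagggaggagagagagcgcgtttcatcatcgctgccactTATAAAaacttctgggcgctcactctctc
Hpgd, chr8:56294302-56294551: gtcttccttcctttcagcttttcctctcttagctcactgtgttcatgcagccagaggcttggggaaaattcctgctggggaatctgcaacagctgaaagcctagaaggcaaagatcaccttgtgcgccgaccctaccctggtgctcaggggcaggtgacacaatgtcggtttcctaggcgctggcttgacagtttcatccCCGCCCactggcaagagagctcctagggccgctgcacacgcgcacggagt
Ptgs1, chr2:36230176-36230425: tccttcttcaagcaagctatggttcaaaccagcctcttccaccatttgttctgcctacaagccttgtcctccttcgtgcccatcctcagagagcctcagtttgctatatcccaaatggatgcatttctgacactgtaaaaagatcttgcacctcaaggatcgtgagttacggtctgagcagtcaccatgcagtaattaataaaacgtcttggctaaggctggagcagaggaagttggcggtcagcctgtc
Ptgs2, chr1:150099781-150100030: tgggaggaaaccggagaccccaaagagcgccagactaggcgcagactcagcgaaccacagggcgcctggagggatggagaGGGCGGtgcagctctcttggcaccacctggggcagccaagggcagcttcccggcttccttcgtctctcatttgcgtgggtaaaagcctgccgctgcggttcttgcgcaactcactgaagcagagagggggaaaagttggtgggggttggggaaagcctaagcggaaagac
The Slco2a1 window held a TATA box that begins 29 bases before the start and a GC box that begins 106 bases before it. Slco2a1 was the 1 member of 9 with TATAAA, a motif found in 12.4% of 32851 promoter windows of the same length. A GC box began 50 bases before the start of Hpgd and 170 bases before that of Ptgs2, and 7 of the 9 members held one, against 32.7% of all windows. None of the searched letters were found in the Ptgs1 window, and none of the 9 windows held the cAMP response element (1.55% of all windows), the forkhead motif (3.17%), the GLI motif (0.225%) or the E box (6.02%). CCAAT was found in 2 of the 9 windows and in 33.8% of all. For Hpgd, Ptger2 and Ptger3 the letters after the RefSeq start were not found near the start of a GENCODE transcript, so these windows, which are among those counted, rest on RefSeq alone. For the other members the check also accepted a match some way into a transcript, so it does not fix their exact starts. Bases after the RefSeq start were not searched, so letters missing from a window do not show that a promoter lacks the motif. A match of letters is a description and does not show a binding site.

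After cell filters and removal of called doublets, 12623 of 13127 cells remained, between 1177 (A3) and 2508 (B2) per set. The median depth was 7058 to 13586 unique molecular identifiers (UMIs, counted transcripts) per cell in ending A and 3548 to 4175 in ending B. Pairs of sets shared 0 to 3 cell barcodes. Clusters that met the markers of PDGFRA-high mesenchyme held 4047 cells, and made up 1.87% to 1.99% of A1 and A2, 19.4% to 20.6% of B1 and B2, 87.5% of A3 and 90.9% of B3. Clusters of other mesenchyme held 6171 cells, 2349 cells stayed unnamed, and 37 cells were glia-like. Unnamed cells, among them 710 of 2211 in B1 and 861 of 2508 in B2, were left out of other mesenchyme. Being unnamed does not show that a cluster lacked the mesenchyme markers, since other naming rules also applied. Epithelium, endothelium and blood cells, which were among the sorted populations, formed no named cluster, although unnamed cluster B 10 (248 cells) was led by genes known from leukocytes, among them Rgs1, Srgn, Laptm5 and Lyz2. RNA typical of epithelial cells was uneven: the summed level of 5 enterocyte genes (Fabp1, Fabp2, Apoa1, Apoa4, Rbp2) was 2330 CPM (a gene's UMIs as a share of all UMIs, scaled to 1e6) in A3 against 492 in A1 and 472 in A2, and 31.9 to 55.8 CPM in ending B. At least 1 UMI of these genes was found in 99.6% of cells of A1 and 99.9% of A3, and in 12.7% of B2 to 18.2% of B3. Whether these UMIs were free RNA of other cells or came from remaining doublets was not tested.

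Slco2a1, the transporter, was found mainly in the set numbered 3 of each ending. In ending A it stood at 3.81 CPM (A1), 1.95 CPM (A2) and 214.6 CPM (A3), and in ending B at 10.9 CPM (B1), 12.1 CPM (B2) and 98.5 CPM (B3). The sets numbered 3 were the high ones, and their counting intervals (205.2 to 224.2 CPM in A3 and 91.8 to 105.6 in B3) lay far above those of all other sets. The log2 ratio of set 3 over sets 1 and 2 was 6.20 (5.98 to 6.43) in ending A and 3.10 (2.89 to 3.31) in ending B. A UMI of Slco2a1 was found in 49.6% of cells of A3 and 23.6% of B3, against 1.49% to 3.95% of the other sets. The same share was 5.41% (exact Clopper-Pearson interval 0.661 to 18.2) of the 37 glia-like cells of ending B, a type that should lack the gene, at a median of 7997 UMIs. When each cell was thinned to 2000 randomly drawn UMIs, which left out 1 to 13 shallower cells per set, the shares were 30.3% in A3 and 15.9% in B3, and 0.480% to 2.96% elsewhere.

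Slco2a1 UMIs were concentrated in part of the cells. In A3, 593 of 1177 cells had none, 173 had 1, 111 had 2 and 300 had 3 or more, with a maximum of 29 in 1 cell. The tenth of cells with the most Slco2a1 held 47.0% of its UMIs in A3 and 63.2% in B3. In B3, at a lower depth per cell, 1666 of 2181 cells had none and 63 had 3 or more. Cells with 5 or more UMIs numbered 150 in A3, 11 in B3, 6 in A1, 3 in A2, 1 in B1 and 0 of 2508 in B2.

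**Figure D1:**
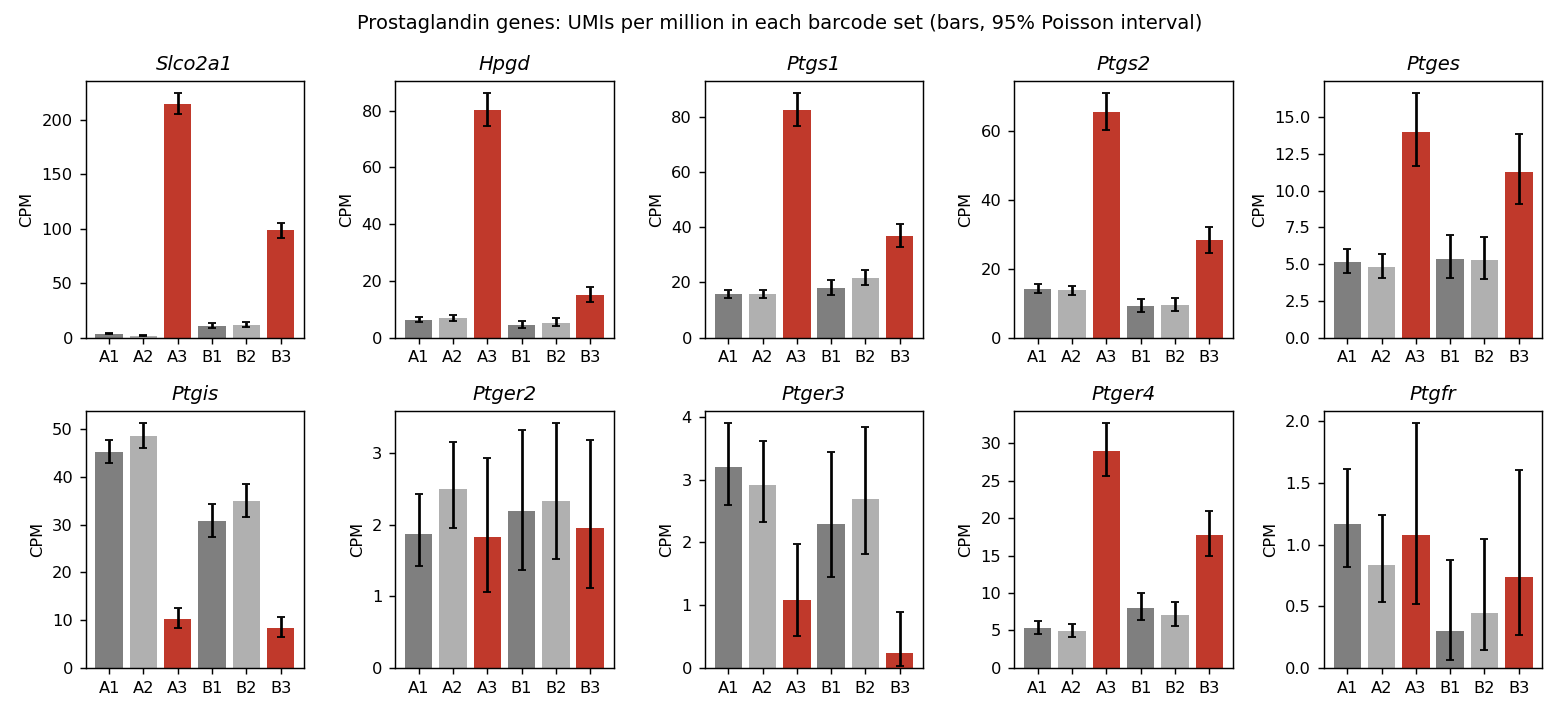
Level of each member in the 6 barcode sets, in CPM. Bars are sums over all cells of a set, lines are 95% exact Poisson intervals, and red bars are the sets numbered 3. Slco2a1, Hpgd, Ptgs1, Ptgs2, Ptges and Ptger4 were highest in A3 and B3 within their ending, and Ptgis was lowest there.

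Hpgd, the dehydrogenase that inactivates prostaglandins, was also highest in the sets numbered 3. A1, A2 and A3 had 6.21, 6.85 and 80.1 CPM, and B1, B2 and B3 had 4.48, 5.29 and 14.9 CPM. The gap between A3 and B3 was wider for Hpgd, at more than 5-fold, than for Slco2a1. The log2 ratio of set 3 over sets 1 and 2 was 3.62 (3.44 to 3.80) in A and 1.61 (1.22 to 2.00) in B. After thinning, Hpgd was found in 13.8% of cells of A3 and 2.77% of B3, and in 0.819% to 1.30% of the others. In ending B the unthinned shares of B1 and B2 were not above those of glia-like cells for Hpgd (1.72% and 1.95% against 2.70%, interval 0.0684 to 14.2) and Ptger4 (3.48% and 3.03% against 5.41%), and close to them for Ptgs1 (7.60% and 8.85% against 8.11%). Hpgd is also known from intestinal epithelium, and the enterocyte genes were higher in A3 as well; the ratio of Hpgd to them in each class is given with the class values.

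The cyclooxygenases, which carry out the committed step of synthesis, were higher in A3 and B3 as well. Ptgs1, the form found in many cells at rest, was at 15.6, 15.7 and 82.4 CPM in the 3 sets of ending A and at 18.0, 21.7 and 36.8 CPM in those of ending B, in the order 1, 2, 3. Its log2 ratio was 2.40 (2.26 to 2.53) in ending A and 0.88 (0.66 to 1.10) in ending B, where it stayed under 2-fold. Ptgs2, the inducible form, was at 14.1, 13.7 and 65.4 CPM in ending A and at 9.26, 9.59 and 28.2 CPM in ending B, in the same order. Its log2 ratios were 2.23 (2.08 to 2.38) and 1.58 (1.30 to 1.86). Ptgs2 is an immediate early gene that tissue dissociation can induce. The summed level of 8 other immediate early genes (Fos, Fosb, Jun, Junb, Egr1, Atf3, Ier2, Dusp1) lay between 3087 and 3164 CPM in the sets of ending A and between 2718 and 2884 CPM in those of ending B. In ending A the same sum differed more by class: PDGFRA-high cells had 3345 CPM against 2334 for other mesenchyme in A3, and 4561 against 3213 CPM in A2. In ending B it was slightly lower in PDGFRA-high cells, at 2707 against 2779 CPM in B1, 2727 against 2872 in B2 and 2904.5 against 3055 in B3. The part of dissociation in the level of Ptgs2 was not tested. Of the 8, only Fosb passed 2-fold between set 3 and the others, with a log2 ratio of 1.15 (1.04 to 1.25) in ending B and 0.93 (0.84 to 1.01) in ending A.

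The terminal synthases went in opposite directions. Ptges, which makes prostaglandin E2, stood at 5.14 CPM (A1), 4.83 CPM (A2) and 14.0 CPM (A3), and at 5.38 CPM (B1), 5.29 CPM (B2) and 11.3 CPM (B3). Its log2 ratios were 1.49 (1.18 to 1.79) and 1.08 (0.67 to 1.49). Ptgis, which makes prostacyclin, stood at 45.2 CPM (A1), 48.6 CPM (A2) and 10.2 CPM (A3), and at 30.8 CPM (B1), 34.95 CPM (B2) and 8.33 CPM (B3). Of the 7 members at 5 CPM or more, Ptgis was therefore the 1 that was low where the others were high. Its log2 ratios were -2.19 (-2.51 to -1.90) in A and -1.98 (-2.37 to -1.62) in B. Ptger3, under 5 CPM, was lower there too, at -1.51 (-2.59 to -0.60) in A and -3.35 (-6.43 to -1.43) in B. A UMI of Ptgis was found in 39.7% and 43.8% of cells of A1 and A2, and in 6.46% of A3. In ending B the shares were 12.2% in B1 and 13.6% in B2, and 5 of the 37 glia-like cells had a UMI too (interval 4.54% to 28.8%, at greater depth). By class, Ptgis was found in 17.8% of other mesenchyme and 1.33% of PDGFRA-high cells of ending B, and after thinning in 8.15% (7.06 to 9.35) and 0.653% (0.394 to 1.02), so the share was not the same low one in every type.

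Among the receptors that are members, Ptger4 alone reached 5 CPM in any set. Ptger4, which raises cyclic AMP through Gs, had 5.37, 4.97 and 29.0 CPM in the sets of ending A and 8.07, 7.08 and 17.8 CPM in those of ending B. Its log2 ratios were 2.48 (2.24 to 2.73) and 1.24 (0.90 to 1.57). Ptger2, which also acts through Gs, lay between 1.83 and 2.50 CPM in all 6 sets with overlapping intervals. Ptger3, which acts through Gi, was at 3.20 and 2.92 CPM in A1 and A2 and 1.08 in A3, and at 2.29 and 2.69 CPM in B1 and B2 and 0.245 in B3, the last from 2 UMIs. Ptgfr lay between 0.299 CPM in B1 (3 UMIs) and 1.16 CPM in A1. In ending B, at most 1.16% of the cells of a set had a UMI of Ptger3 and at most 1.04% one of Ptger2. Neither was above the 2.70% of glia-like cells, which is 1 cell of 37 (interval 0.0684 to 14.2) at greater depth. By class in ending B after thinning, Ptger3 was found in 0.837% (0.505 to 1.30) of other mesenchyme and 0.0344% (0.000870 to 0.191) of PDGFRA-high cells. For Ptger2 the shares were 0.529% and 0.309%, with overlapping intervals.

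With a minimum of 5 CPM in 1 of the compared groups and a 2-fold mark, 7 of the 10 members could be counted. In ending A, 6 were higher and 1 lower in set 3, beside a background of 12.4% of 11163 genes higher and 6.51% lower. In ending B, 5 were higher, 1 lower and 1 within 2-fold, beside 9.81% of 10342 genes higher and 6.29% lower. The members were chosen in view of this contrast, and a gene above the minimum only through the set where it is high had to differ, so these counts describe the members and support nothing. The median log2 ratio of the 7 was 2.40 in A and 1.24 in B, against -0.00389 and 0.15 over all genes counted. Between sets 1 and 2, 0 of 6 members passed 2-fold in ending A (0.24% of genes higher, 0.0288% lower) and 0 of 7 in ending B (0.0508% and 0.0203%). Slco2a1 was under the minimum in A1 and A2, and not counted there. It was higher in A1 than in A2 by a log2 ratio of 0.97 (0.50 to 1.46), on 118 and 56 UMIs.

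The sets differ in which cells they hold, so the same ratio was also taken among PDGFRA-high cells only. Slco2a1 then stood at 266.1 CPM in A3 against 146.5 in A1 and A2 (log2 ratio 0.86, 0.59 to 1.15), and at 109.4 CPM in B3 against 62.7 in B1 and B2 (0.80, 0.58 to 1.03). Hpgd was at 97.6 against 91.5 CPM in A (0.09, -0.26 to 0.47) and at 16.4 against 18.0 CPM in B (-0.13, -0.59 to 0.34). In ending A, 0 of 7 members passed 2-fold (6.53% of genes higher, 3.28% lower), and in ending B 1 of 7 did (2.31% higher, 0.831% lower). That member was Ptges, at 12.2 CPM in B3 against 4.43 CPM in B1 and B2, a log2 ratio of 1.46 (0.66 to 2.36). Sets A1 and A2 gave only 49 and 39 PDGFRA-high cells. Among PDGFRA-high cells alone, set 3 thus exceeded the other sets by less than 2-fold for Slco2a1 in both endings.

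**Figure D2:**
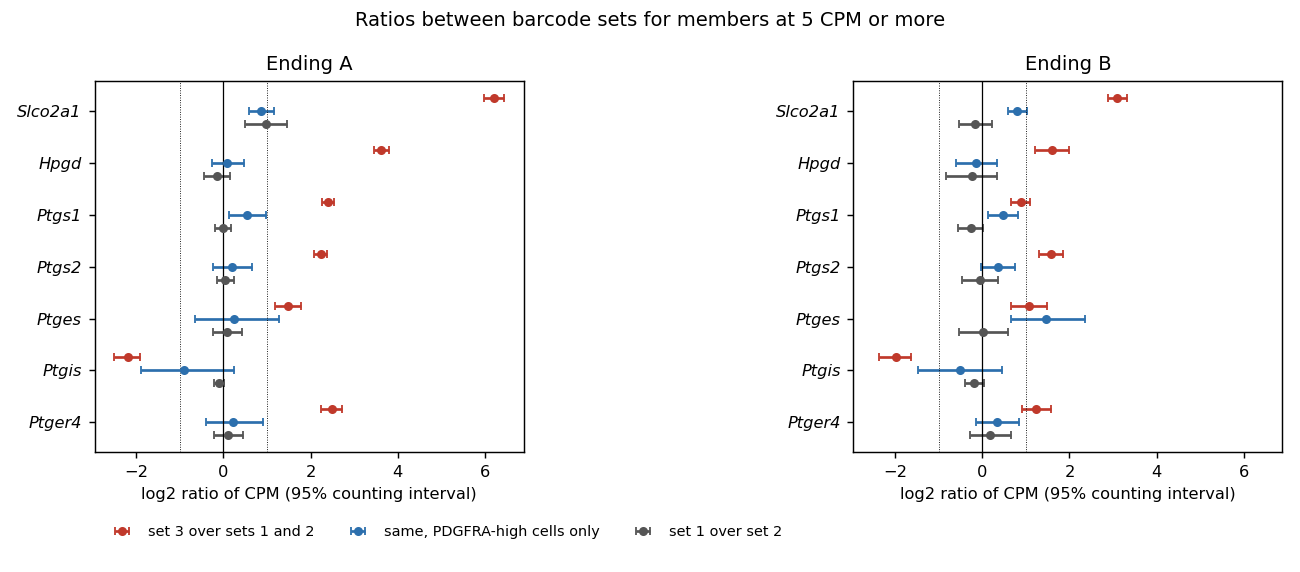
Log2 ratio of CPM for the 7 members at 5 CPM or more, with 95% counting intervals, in ending A (left) and ending B (right). Red points compare set 3 with sets 1 and 2 over all cells, blue points the same among PDGFRA-high cells, and grey points set 1 with set 2. Dotted lines mark 2-fold. The red points lie beyond the dotted lines except for Ptgs1 in ending B, and the blue points lie between them except for Ptges in ending B.

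Within each ending, PDGFRA-high cells were then set against other mesenchyme. Slco2a1 was at 254.8 against 1.46 CPM in A (log2 ratio 7.45, 7.12 to 7.80) and at 94.3 against 3.18 CPM in B (4.89, 4.42 to 5.40). Hpgd was at 97.0 against 5.09 CPM in A (4.25) and at 16.9 against 2.43 CPM in B (2.80). Of the 7 members counted, 6 were at least 2-fold higher and 1 lower in A (background 14.3% and 9.87%), and 4 were higher and 1 lower in B (12.4% and 9.98%). Ptgs2 had ratios of 2.41 in A and 2.09 in B, and Ptger4 of 2.64 and 1.43. Ptgs1 had 2.56 in A but 0.97 (0.72 to 1.21) in B, where other mesenchyme stood at 18.3 CPM against 35.8. Ptges had 1.86 in A and 0.75 in B. Several of the values of ending B crossed the 2-fold mark when the class was drawn otherwise. With Pdgfra required at 2-fold, which leaves clusters B 1 and B 9 outside the class, Ptgs1 had 1.90, Ptges 1.27, Ptger4 0.79 and Slco2a1 3.77, and with called doublets kept Ptgs1 had 1.47, Ptges 1.17 and Slco2a1 5.53. Ptgis was the lower one, at 7.62 against 46.2 CPM in A (-2.60, -2.99 to -2.24) and 4.00 against 39.5 CPM in B (-3.30, -3.80 to -2.85). Ptger3 gave 1 UMI in 2929 PDGFRA-high cells of ending B against 41 UMIs in 2279 cells of other mesenchyme, a log2 ratio of -5.17 with a counting interval of -10.51 to -2.61.

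These class ratios were not equal over the sets. The log2 ratio of Slco2a1 took the values 6.91, 7.19 and 4.70 in sets 1, 2 and 3 of ending A, and 6.13, 4.89 and 1.87 in those of ending B. The sets numbered 3 gave the lowest value of their ending, and in them other mesenchyme carried more Slco2a1: 10.2 CPM in A3 against 1.54 and 0.717 in A1 and A2, and 29.9 CPM in B3 against 0.911 and 2.09 in B1 and B2. Other mesenchyme was rare in those sets (134 cells of A3 and 114 of B3) and made up of other clusters. Cluster A 11 gave 88 of the 134 cells in A3, against 112 of 2045 in A1. Clusters B 5 and B 6 gave 0 and 2 cells in B3, against 240 and 221 of 1049 in B1. The class ratios of the sets numbered 3 thus rest on an unlike comparison group. Whether this mix, free Slco2a1 RNA or misplaced cells contributed was not tested. In each of the 6 sets Ptgis was the lower in PDGFRA-high cells, with ratios from -3.46 in B2 to -1.45 in A3. Hpgd was higher in all 6 sets, from 1.53 (0.14 to 3.43) in B3 to 4.68 in A1. Ptges went both ways in ending B, at -0.45 (-1.87 to 0.75) in B1, -0.36 (-1.69 to 0.79) in B2 and 1.52 (-0.08 to 3.82) in B3, so the ratio of 0.75 over all cells of the ending does not describe its single sets. For Ptgs2 the smallest ratio was that of A3, 0.73 (0.39 to 1.10), with 71.8 against 43.2 CPM.

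Since enterocyte genes were also higher in PDGFRA-high cells, each member was counted per UMI of the 5 enterocyte genes, with intervals that include the counting error of both. Hpgd gave 3.91 UMIs per 100 enterocyte UMIs in PDGFRA-high cells of A3 and 0.271 in other mesenchyme of the same set, a log2 ratio of 3.85 (2.86 to 5.07). It gave 41.3 against 7.59 in B1 (2.44, 1.29 to 3.64) and 41.7 against 7.88 in B2 (2.40, 1.35 to 3.52). In B3 it gave 27.7 against 22.2, from 4 Hpgd UMIs in other mesenchyme (0.32, -1.32 to 2.37), and no difference was detectable there. Slco2a1 had log2 ratios of 6.29, 6.71 and 4.13 in the sets of ending A and of 5.62 and 4.22 in B1 and B2, but 0.66 (-0.35 to 1.65) in B3. For Ptgs1 the same measure gave log2 ratios of 1.54, 1.55 and 1.58 in A1, A2 and A3 but -0.10, 0.07 and -0.01 in the sets of ending B. Ptgs2 had 2.16, 1.18 and 0.16 (-0.19 to 0.53) in the sets of ending A and 1.47, 1.22 and -0.05 in those of ending B. Ptger4 had 1.15, 2.52 and 1.91 in ending A and 0.97, 0.43 (-0.48 to 1.32) and -0.69 in ending B. Ptges had 1.03, 1.12 and 2.00 in ending A and -0.95, -1.03 and 0.30 in ending B, where all 3 intervals included 0. Ptgis was lower in all 6 sets, from -4.55 to -2.03. The values of B3 rest on 18 enterocyte UMIs in other mesenchyme, and on this measure none of the 7 members counted except Ptgis had an interval apart from 0 there. The part of free RNA in the class differences was not tested beyond these values.

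**Figure D3:**
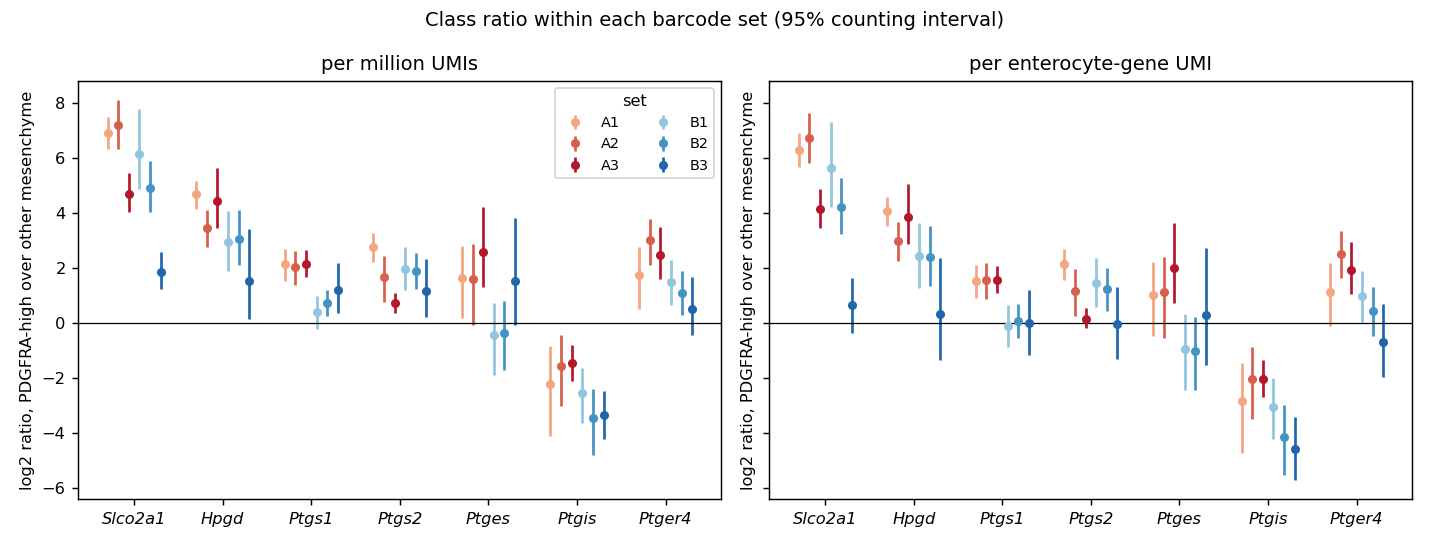
Log2 ratio of PDGFRA-high cells over other mesenchyme within each of the 6 sets, on the CPM scale (left) and per UMI of the 5 enterocyte genes (right), with 95% counting intervals. Slco2a1 and Hpgd lie above 0 and Ptgis below 0 in every set on the left, and on the right Ptgs1 lies at about 0 in the 3 sets of ending B and the intervals of B3 reach 0 except for Ptgis.

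The members also differed among PDGFRA-high clusters, which were built with the members left out of the clustering genes. Cluster A 0 (719 cells, with 11 PDGFRA-high markers) had 422.5 CPM of Slco2a1, 163.8 of Hpgd, 147.5 of Ptgs1, 48.5 of Ptger4, 23.9 of Ptges and 3.0 of Ptgis. Cluster A 12 (203 cells), with a Pdgfra level of 1091 CPM against 1270 in cluster A 0, had 45.9 CPM of Slco2a1, 9.32 of Hpgd and 38.7 of Ptgs1. Cluster A 13 (196 cells) had 8.39 CPM of Slco2a1 and 1.97 of Hpgd, but the highest Ptgs2 of the 27 clusters of at least 50 cells, 109.0 CPM (95.1 to 124.4). A 12 and A 0 were thus close in Pdgfra and about 9-fold apart in Slco2a1. In ending A, Ptgs2 and Slco2a1 peaked in different clusters of the same class. The immediate early genes summed to 2032 CPM in cluster A 13 and 3863 CPM in A 0.

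In ending B, Slco2a1, Ptgs1 and Ptgs2 were all highest in cluster B 0, so the separate Ptgs2 peak of ending A was not seen. Cluster B 0 (1400 cells) had 170.6 CPM of Slco2a1, 62.8 of Ptgs1, 35.7 of Ptgs2 and 26.6 of Hpgd. Cluster B 9 (278 cells) had 109.3 CPM of Slco2a1 and 32.2 of Hpgd, and the intervals of Hpgd in B 0 (22.2 to 31.7) and B 9 (22.2 to 45.2) overlapped. Cluster B 1 (1251 cells) had 15.2 CPM of Slco2a1, 4.00 of Hpgd and 19.6 of Ptgs2. B 1 and B 9 stood just inside the class, with Pdgfra at 1.76 and 1.91 times the other cells against a required 1.5. Cluster A 17 (1.32) met the pericyte markers and 0 PDGFRA-high markers. Cluster A 11 (1.11) met 5 PDGFRA-high markers and stood outside by its Pdgfra level. A 11, counted as other mesenchyme, had 43.9 CPM of Ptgs2 and 4.24 of Slco2a1.

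Within the cluster with most Slco2a1, the sets were closer to each other. In A 0, Slco2a1 was at 432.6 CPM in the 672 cells of A3 and 300.8 CPM (247.0 to 362.8) in the 47 cells of A1 and A2. Hpgd there was at 161.3 and 193.2 CPM, Ptgs1 at 148.5 and 135.2, and Ptgs2 at 67.7 and 77.3, each with overlapping intervals. In B 0, Slco2a1 was at 177.3 CPM in B3 and 149.7 CPM in B1 and B2, with overlapping intervals. Ptges was the exception in B 0, at 17.3 CPM (13.2 to 22.2) in B3 and 4.38 CPM (1.42 to 10.2, from 5 UMIs) in B1 and B2.

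Several members were also high outside the PDGFRA-high class. Among the 16 clusters of ending A with at least 50 cells, Ptgs1, Ptger4 and Ptges were highest in cluster A 15 and not in A 0. Cluster A 15 (53 cells, led by Igfbp3, P2rx1 and Col18a1, with low Pdgfra) had 158.6 CPM of Ptgs1, 50.5 of Ptger4, 33.6 of Ptges, 33.6 of Slco2a1 and 4.81 of Ptgis, but 0 UMIs of Hpgd. It thus shared the synthesis genes and Ptger4 with cluster A 0 and not the breakdown gene, for which a count of 0 allows up to 7.21 CPM (3 counts). Cluster A 4 (415 cells, led by Col6a5 and Wfdc1) had 51.8 CPM of Ptgs1, 34.2 of Ptger4 and 45.9 of Ptgis, with Slco2a1 at 1.40. Among clusters of ending A with at least 50 cells, Ptgis, Ptger3 and Ptgfr were highest in cluster A 8 (333 cells, led by the matrix genes Dpt, Aspn and Mgp), at 113.2, 14.7 and 12.6 CPM. In ending B, Ptgis (69.9 CPM) and Ptger3 (9.12 CPM) were highest in cluster B 6 (493 cells). A cluster of 19 cells that met the pericyte markers, A 17, had 99.1 CPM of Hpgd, found in 57.9% of its cells, and its 11 Slco2a1 UMIs came from 5.26% of its cells, which is a single cell.

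**Figure D4:**
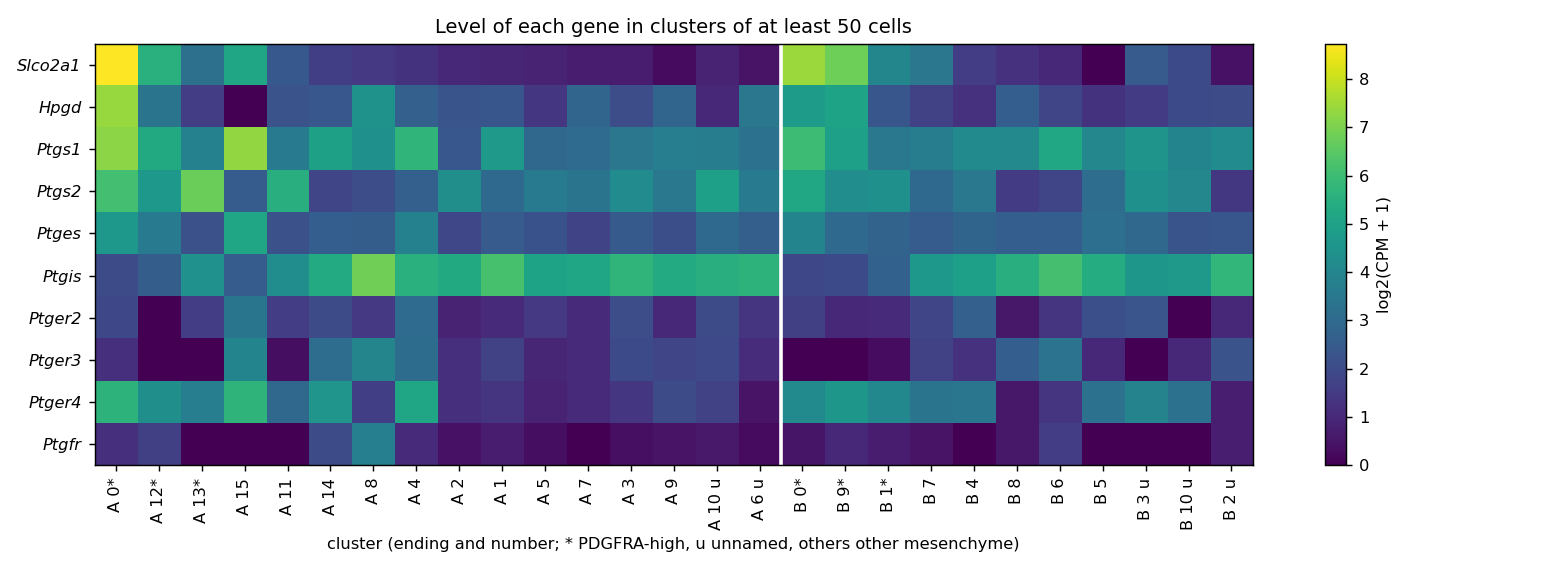
Level of each member as log2(CPM + 1) in every cluster of at least 50 cells, ending A left of the white line and ending B right of it. An asterisk marks PDGFRA-high clusters and u unnamed ones. Slco2a1 and Hpgd are brightest in A 0, B 0 and B 9, Ptgs2 in A 13, Ptgs1 also in A 15, and Ptgis is dark where Slco2a1 is bright.

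Over the 16 clusters of ending A and 11 of ending B with at least 50 cells, the correlation of each gene with Slco2a1 was taken on log2(CPM + 1). Clusters of an ending share their libraries and the clustering, so these values only describe. Among 7236 genes ranked, the most alike were Npnt (r = 0.95 in A and 0.96 in B), which encodes a basement membrane protein, Neat1 (0.95 and 0.96), a long noncoding RNA, Rgs9 (0.95 and 0.94), a regulator of G protein signalling, Hipk1 (0.94 and 0.96) and Cachd1 (0.94 and 0.94). No member followed Slco2a1 that closely, and Pdgfra had r = 0.75 in A and 0.94 in B. Ptges had r = 0.75 and 0.60, Ptger4 0.76 and 0.68, Ptgs1 0.77 and 0.51, Hpgd 0.46 and 0.86, and Ptgs2 0.43 and 0.73. Ptgis ran opposite to Slco2a1, with r = -0.90 in A and -0.95 in B.

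Co-detection was examined cell by cell among PDGFRA-high cells thinned to 2000 UMIs. In A3, 352 cells had an Slco2a1 UMI and 675 had none, and in B3 the numbers were 335 and 1636. Hpgd was found in 26.4% (21.9 to 31.4) of Slco2a1-positive and 9.48% (7.38 to 11.9) of Slco2a1-negative cells of A3, an odds ratio of 3.42 (2.38 to 4.95). In B3 it was found in 4.78% and 2.51%, an odds ratio of 1.95 (1.01 to 3.60) in the first random draw of UMIs and 3.62 (2.00 to 6.48) in a second draw, so a single draw fixes this value poorly. Ptgs1 was found in 28.4% and 13.8% of A3 (2.48, 1.78 to 3.46) and in 12.2% and 6.23% of B3 (2.10, 1.39 to 3.11). In A3 and B3, cells with a UMI of the transporter thus more often carried one of the breakdown enzyme and of Ptgs1.

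The other members were less clearly tied to Slco2a1. Ptgs2 was found in 12.5% of Slco2a1-positive and 9.19% of Slco2a1-negative cells of A3 (1.41, 0.91 to 2.17) and in 5.97% and 4.58% of B3 (1.32, 0.75 to 2.23). Ptges gave odds ratios of 1.64 (0.78 to 3.42) in A3 and 3.81 (1.92 to 7.42) in B3, the latter 1.90 (0.94 to 3.66) in the second draw. Ptger4 gave 1.07 (0.62 to 1.82) and 0.90 (0.40 to 1.81). Intervals that include 1 do not show that detection was equal. Ptgis was found in 1 Slco2a1-positive cell of A3 and 1 of B3. Pla2g4a, which supplies the substrate, was found in 71.3% and 45.0% of A3 (3.03, 2.28 to 4.04). In B3 it was found in 32.8% and 28.0% (1.26, 0.97 to 1.63), an interval that includes 1.

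Because Slco2a1 differs among PDGFRA-high clusters, the same shares were taken within cluster A 0 or B 0 alone. In A3 the odds ratio of Hpgd was then 1.77 (1.20 to 2.62), with 27.1% and 17.3%, and that of Ptgs1 was 1.53 (1.06 to 2.21). In B3 Hpgd stood at 1.18 (0.52 to 2.50), Ptgs1 at 1.40 (0.90 to 2.17) and Ptges at 2.35 (1.09 to 4.96) with 5.58% and 2.45%. The value of Ptges rests on 15 and 19 cells with a UMI in 1 random draw. Within A 0, Hpgd and Ptgs1 were still found more often in Slco2a1-positive cells, with smaller odds ratios than over the class. Pla2g4a had 1.59 (1.14 to 2.23) within A 0 in A3 and 0.89 (0.66 to 1.20) within B 0 in B3. In the smaller numbers of B1 (49 Slco2a1-positive cells) and B2 (63), the odds ratios over the class were 3.41 (0.55 to 15.6) and 3.84 (1.14 to 11.6) for Hpgd, and 3.33 (1.01 to 9.71) and 2.84 (1.04 to 7.02) for Ptgs1. A1 had 12 Slco2a1-positive cells, too few to read.

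**Figure D5:**
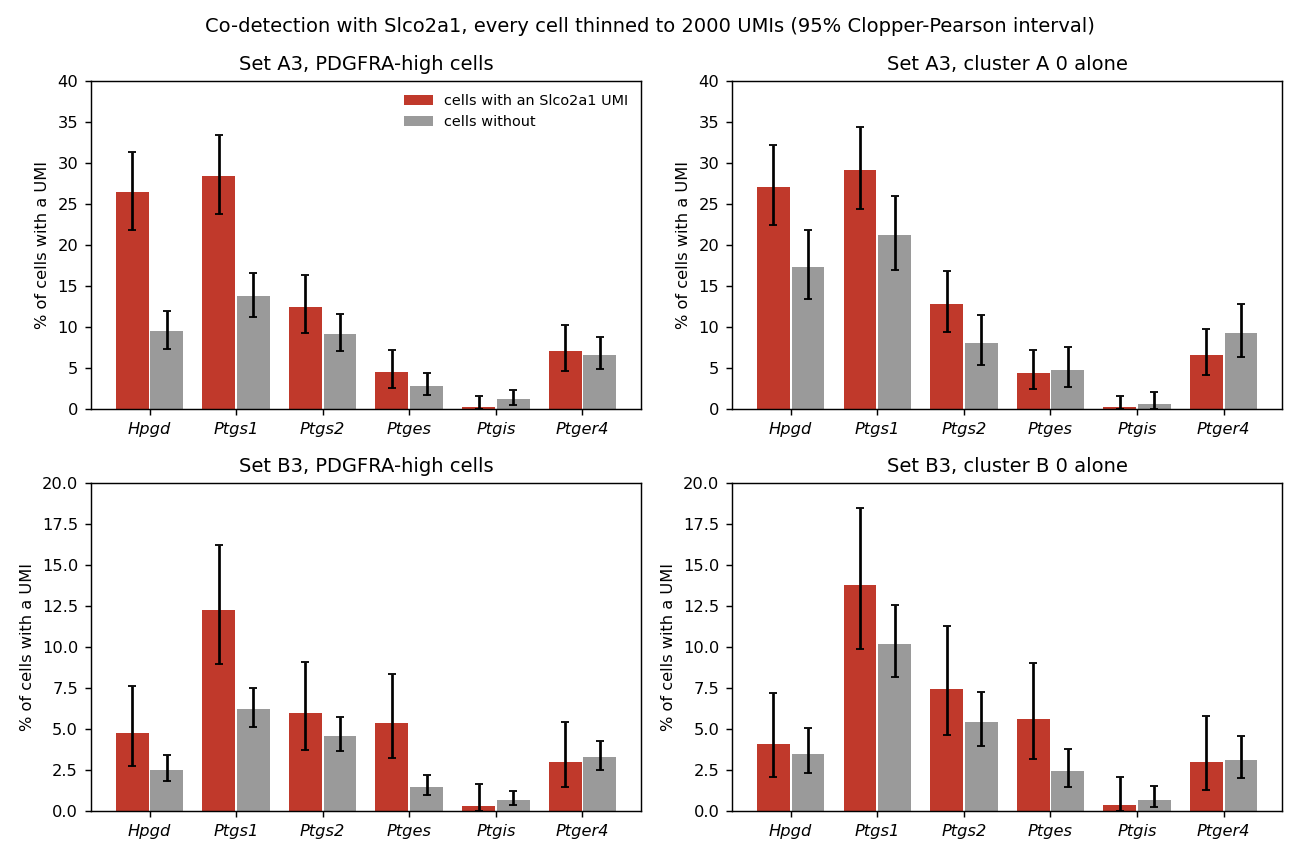
Share of cells with at least 1 UMI of each member among PDGFRA-high cells with (red) and without (grey) an Slco2a1 UMI, every cell thinned to 2000 UMIs, with 95% Clopper-Pearson intervals. Left panels show the whole class and right panels the cluster with most Slco2a1, for sets A3 (top) and B3 (bottom). In the upper panels Hpgd and Ptgs1 are higher in red, with a smaller gap on the right than on the left.

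All genes were then compared between Slco2a1-positive and Slco2a1-negative PDGFRA-high cells of each ending (369 and 745 cells in A, 447 and 2463 in B) at the thinned depth. Hpgd was at 187.0 against 55.7 CPM in A (log2 ratio 1.75, 1.34 to 2.16) and at 28.0 against 13.4 CPM in B (1.06, 0.34 to 1.75). Ptgs1 was at 159.9 against 75.8 CPM in A (1.08) and at 69.4 against 30.0 CPM in B (1.21), which placed it among the 10 genes with the largest mean ratio. Of genes at 50 CPM or more, 2.53% of 3906 were at least 2-fold higher and 1.41% lower in A, and 0.518% of 3283 were higher and 0.64% lower in B. Ptgs2 had ratios of 0.98 (0.50 to 1.45) and 0.46 (-0.18 to 1.06), and Ptger4 of 0.15 and -0.06. Npnt led the genes outside the pathway, at 1111 against 356.4 CPM in A and 388.1 against 170.1 CPM in B, and others among the highest were Spock3, Smoc2, Rgs9, Palld, Spon2, Il1rapl1 and Col18a1. The lowest were Gadd45a, a stress response gene (-2.14 and -2.56), Pdgfa, a ligand of Pdgfra (-1.97 and -2.68), Tubb2b, Bmp3, Cxcl12, Apela, Has2, Trp53i11, Cplx2 and Filip1l. Bmp3, a secreted BMP family member, was at 73.2 against 538.3 CPM in A and 237.1 against 550.1 CPM in B. In A3, 336 of the 352 Slco2a1-positive and 335 of the 675 Slco2a1-negative cells lay in cluster A 0. The lists of highest and lowest genes therefore do not separate differences among clusters from differences within one. Pdgfra itself was 0.33 and 0.42 higher on the log2 scale in Slco2a1-positive cells. The 5 enterocyte genes had log2 ratios of 0.21 to 0.33 in ending A and of -0.35 to 0.80 in ending B, where only that of Apoa1 (0.80, 0.09 to 1.47) had an interval apart from 0. Immediate early genes were also higher in Slco2a1-positive cells of ending B, with Fosb at 0.89, Dusp1 at 0.80, Fos at 0.74 and Jun at 0.60, while in ending A the 8 lay between -0.38 and 0.67. Their part in the ratio of Ptgs2 was not tested. Within cluster A 0 alone the ratios of Hpgd and Ptgs1 were 0.87 and 0.43, and within B 0 alone 0.30 (-0.56 to 1.10) and 0.50.

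Of the other genes of the pathway, 34 with a row in the matrix once Fam213b and Prxl2b, 2 symbols of 1 gene, were summed, 18 in ending A and 17 in ending B reached 5 CPM. Between set 3 and sets 1 and 2, 2 were at least 2-fold higher and 1 lower in A, beside the 12.4% and 6.51% of all genes, and 2 were higher and 2 lower in B, beside 9.81% and 6.29%. Their median log2 ratio was 0.09 in A and 0.19 in B. Pla2g4a, which frees arachidonic acid, was higher in both: 393.0 against 106.0 CPM in A (1.89, 1.83 to 1.95) and 178.5 against 82.5 CPM in B (1.11, 1.01 to 1.22). By cluster it was highest in A 0 (604.7 CPM) and B 0 (266.6 CPM), as Slco2a1 was. Hpgds, a prostaglandin D2 synthase, was at 5.39 against 2.36 CPM in A (1.19) and under 5 CPM in B. Zadh2, which reduces 15-keto prostaglandins after Hpgd has acted, was 1.22 (0.96 to 1.49) higher in B and 0.83 (0.68 to 0.98) in A. Ptger1, the receptor of the E class coupled to calcium, was lower in both, at 3.12 against 6.67 CPM in A (-1.09, -1.69 to -0.55) and 2.57 against 5.57 CPM in B (-1.11, -1.86 to -0.44).

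The thromboxane receptor Tbxa2r differed between endings. It was at 15.9 against 14.5 CPM in A (0.14, -0.12 to 0.39) and at 4.53 against 14.4 CPM in B (-1.67, -2.20 to -1.17). In ending A its level was 30.7 CPM in cluster A 0, 2.15 in A 12 and 36.0 in A 15, while B 0 had 7.19 CPM. The cytosolic synthase Ptges3 was within 2-fold, at -0.77 and -0.62, and Ptges2 at -0.20 and 0.005. The G protein subunits Gnas, Gnaq and Gnai2, through which the receptors act, were within 2-fold in both endings, between -0.39 and 0.46. The prostacyclin receptor Ptgir was at most 1.91 CPM in any set, so the transcript of the receptor for the product of Ptgis stayed under the minimum of 5 CPM. The prostaglandin D2 synthase Ptgds and the receptors Ptgdr and Ptgdr2 were at most 0.448 CPM.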

How the data were processed

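Each value rests on 1 matrix of raw UMI counts per gene and cell, pooled over the 6 samples by the authors before it was deposited. Cell Ranger 2.1.1, Seurat and the build mm10 are named in the submitters' processing notes. Which annotation was used, and how the authors chose cells, is not given in these sources. The members and the gene lists were chosen with earlier results of these data known.

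Cells with under 1000 genes (108) or over 5% mitochondrial UMIs (367) were removed, as were 65 doublets called by Scrublet (expected rate 5%). The caller marked 0.331% of cells in ending A, too few to be taken as having worked, and 0.662% in ending B, also far under the expected rate, so doublets may remain in both. Each ending was clustered alone (scanpy 1.11.5, leidenalg 0.10.2, 2000 variable genes, 30 components, 15 neighbours, resolution 1), with the members, the pathway list and the immediate early genes left out. Clusters were named from fixed markers, by a scoring rule set after the data were seen: PDGFRA-high needed 3 markers and 1.5-fold Pdgfra, another lineage 3 markers at 4-fold, and other mesenchyme 3 mesenchyme markers at 100 CPM. A cluster was left unnamed if its 10 leading genes held more markers of another type than of its own. It was also left unnamed if they held 3 blood genes, or if it was shallow and they held no marker of its own type. Unnamed clusters A 6 (Ano1), A 10 (Dll1), B 2 (Rgs5) and B 3 (Dll1) each had a marker of another type among these genes. Values are UMIs summed over cells as CPM, with exact Poisson intervals. Ratios have exact conditional binomial intervals, and a ratio is called at 2-fold with 5 CPM in 1 group. Odds ratios have exact intervals, and shares have Clopper-Pearson intervals (scipy 1.17.1). The ratio step was tested on simulated data.

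Genes named besides the members are pathway genes at 5 CPM or more, the 5 genes most like Slco2a1 over clusters (Pearson r, ranked by the lower of both endings), and the 10 highest and 10 lowest between Slco2a1-positive and Slco2a1-negative cells at 50 CPM or more with 1 sign in both endings, of which 1 is not reported here. Pathway genes under 5 CPM (Ptgir, Ptgds, Ptgdr, Ptgdr2), Fosb and the leading genes of clusters were named after their values were seen. The ranking by likeness to Slco2a1 left out the members and the cell type markers. Promoter windows are those of RefSeq, GRCm38.p6.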

Additional observations from a re-analysis of the deposited data

How the results depend on the processing

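No paired analysis was possible because the matrix pools all samples and no label ties its cells to a sample or replicate. Under the alternatives 31 values of the main comparisons moved beyond counting error and 91 did not, and of 282 other values 238 stayed within it, 42 moved and 2 reversed. The causes were not tested. For Slco2a1 in set 3 over sets 1 and 2, the mean of per-cell CPM gave log2 ratios of 5.85 in A and 2.77 in B, and set 1 or set 2 alone as the lower arm gave 5.81 or 6.78 in A. Without a CPM minimum, 2 members in A and 2 in B were at least 2-fold lower, Ptgis and Ptger3 in both endings. With a minimum of 20 CPM, 2 members were higher in B, since fewer members were counted. For Slco2a1 in PDGFRA-high cells over other mesenchyme, the top 10% of cells by Pdgfra gave 4.82 in A and 2.30 in B. In B, resolution 2 gave 3.86, kept doublets 5.53 and a Pdgfra mark of 2-fold 3.77. Set 1 alone gave 6.91 in A and 6.13 in B, and set 3 alone 4.70 and 1.87. Ptges in B turned to -0.45 in set 1 and -0.36 in set 2. The odds ratio of Hpgd with Slco2a1 was 2.10 in A3 at 1000 UMIs, 1.77 in cluster A 0 alone and 3.62 in B3 in a second draw, and that of Ptgs1 was 1.53 in A 0. Between Slco2a1-positive and Slco2a1-negative cells, Hpgd was 1.13 at 1000 UMIs and 0.87 in A 0 alone, and 0.30 in B 0 alone; Ptgs1 was 0.43 and 0.50 in those clusters. Genes at least 2-fold higher there numbered 162 at 1000 UMIs, 250 at 20 CPM and 14 within A 0 in ending A, against 99, and 60, 75 and 3 (B 0) in ending B, against 17.

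With 1 pooled sample there is no replicate error, and all intervals cover counting error only. Depth limits Ptger2, Ptger3 and Ptgfr, and 1 draw of 2000 UMIs fixes shares under about 5% poorly.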
